A study of Drosophila melanogaster with 2 samples.

Results

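The tinman complex, or NK homeobox cluster, is a group of neighbouring homeobox genes on chromosome arm 3R of Drosophila melanogaster. It holds tin, bap, lbl, lbe, C15 and slou, and a related homeobox gene, Dr (also called msh, for muscle segment homeobox), lies further along the same arm. Accessible regions were taken for these 7 genes when they overlapped the gene or lay within 5 kb of its ends, which gave 31 of the 26571 regions in the deposited list. Every one of the 7 genes had at least 1 such region, as did 93.4% of protein-coding genes. Of these 31, 27 were at the cluster and 4 at Dr, and 2 lay close enough to a pair of neighbouring genes to count for both. Just inside the limit were regions 4997 bp from bap (fold 1.72) and 4985 bp from lbl (fold 1.96), and just outside it regions 5710 bp from C15 (fold 1.61) and 5984 bp from tin (fold 2.07).

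The assay was ATAC-seq, which maps open chromatin with a transposase that inserts sequencing adapters into exposed DNA. The cells were ML-DmD17-c3 (D17), 1 cell line, known to have been derived from larval haltere imaginal disc and cultured without any treatment that the labels name. Names of the listed regions hold the letters HD, which no label explains, and not D17, so reading the list as one of D17 cells rests on the table's own name and on the samples. All samples form 1 group of 2 replicate libraries, for which 1 peak list was used here, so no value below has a replicate error and no test between samples was possible. The line is a single line, the labels do not say whether the libraries came from separate cultures, and in a bulk sample fewer cells with an open site and less opening per cell cannot be told apart.

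Homeobox genes encode transcription factors that bind DNA through a homeodomain. The NK cluster genes are known above all from the mesoderm: tin specifies heart and other dorsal mesoderm, bap the visceral muscle of the gut, the ladybird genes lbl and lbe heart cells and single body wall muscles, and slou the founder cells of particular muscles. C15 is best known from the tip of the leg disc, where it patterns the pretarsus, and from the amnioserosa. Dr acts in muscle founders, in the dorsal column of the embryonic nervous system, and in the dorsal part of the wing disc. In most cells that do not express them, developmental homeobox genes of this kind are known as targets of Polycomb repression.

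The value used is the authors' fold enrichment, the ratio of the read pileup at a region's summit to the local background. Over the whole list it ran from 1.29 to 40.8, with a median of 1.90. Regions above 2.999, the 10% of the list with the highest fold, are called strong here. Summit pileups were recovered from the deposited fold and p-value and ran from 62 to 2908 reads over the list, with a median of 101. The background recovered with them was at its lowest value, 44.4 reads, in 39.8% of the list. Those regions share a background that is not particular to each place, and their folds differ by pileup alone. Intervals given with a fold are exact Poisson 95% intervals of the summit pileup with the background held fixed. They cover counting error of the pileup only, and their overlap is not a test. Gene ends are called lower and upper by coordinate, since the strand of each gene was not used here, and coordinates are those of Release 6 (dm6).

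Markers fixed for the line's label were read only as accessibility. A strong region lay within 5 kb of all 8 wing and haltere disc genes, 4 of 5 hemocyte genes, 1 of 5 muscle genes and 3 of 4 neuron genes, and of 28.1% of protein-coding genes. A region lay within 500 bp of an end of 6 of the 8 disc genes and of 3, 2 and 1 genes of the other lists, in the same order. The share over all protein-coding genes was 68.6%. A strong region lay within 500 bp of an end of 4 of the 8 disc genes, against 11.3% of protein-coding genes. For the hemocyte, muscle and neuron lists the counts were 0, 1 and 1. The disc list stood highest on that count, but the lists are short and no difference between them was tested. Taken over the 3 counts, the markers did not separate the disc from every other cell type.

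Each of the 7 genes had an accessible region within 500 bp of an end, as did 68.6% of the 13946 protein-coding genes. The background for a tighter rule was lower: 6 of the 7 genes had an end that lay inside a region, against 24.0% of protein-coding genes. Crowding of genes bears on such counts, and 6 of the 7, all but lbl, had no end of another coding gene within 1000 bp. All 6 of these isolated genes had a region within 500 bp of an end and 5 had an end inside a region, against 53.5% and 20.3% of the isolated protein-coding genes. Other definitions of an end gave 7 of 7 genes with a region within 200 bp (44.1% of protein-coding genes), 6 with a summit within 500 bp (44.6%) and 6 with a region of the higher-scoring 50% of the list within 500 bp (48.2%). The folds at these ends differed widely among the 7 genes, from 1.51 to 6.58.

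Dr had the highest fold at an end, 6.58 (interval 5.88 to 7.34), at 3R:29556058-29557109. Next was lbe with 4.39 (3.80 to 5.04) at 3R:21445303-21446776. These were the only 2 of the 7 genes with a strong region at an end, which 11.3% of protein-coding genes had. The intervals of Dr and lbe overlapped neither each other nor any of the other 5 genes' intervals.

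Below them came slou with 2.62 (2.19 to 3.12), bap with 2.60 (2.16 to 3.11), C15 with 2.43 (2.00 to 2.92) and lbl with 2.09 (1.70 to 2.56). Their intervals all overlapped one another, and this part of the order was not tested. The fold at the end of tin was 1.51 (1.22 to 1.85), and its interval overlapped only that of lbl. Among the 9570 protein-coding genes with a region at an end, 98.9% had a lower fold than Dr, 94.7% a lower one than lbe and 2.63% a lower one than tin. The median over the 7 genes was 2.60 and that over the 9570 genes 2.12.

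**Figure D1:**
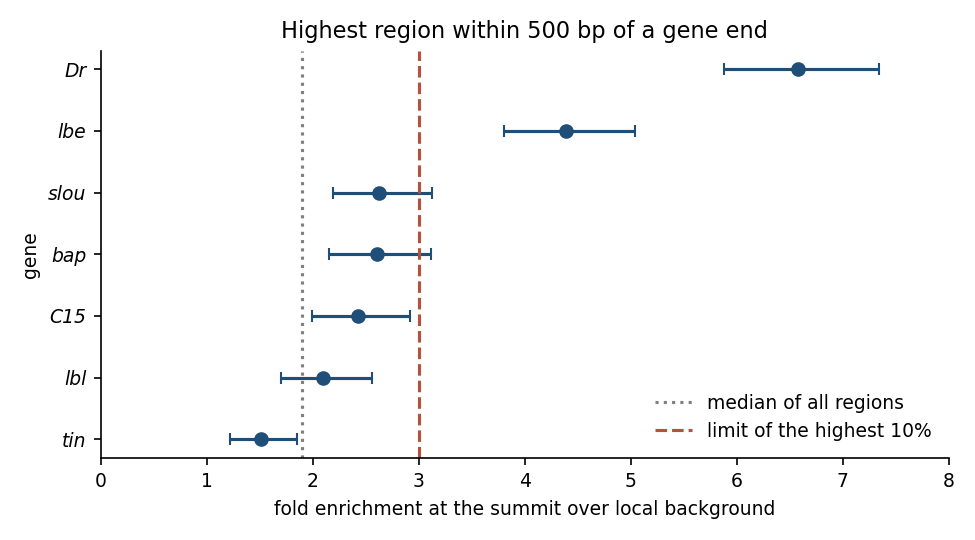
Fold enrichment (x axis, summit pileup over local background) of the highest region within 500 bp of an end of each gene (y axis), with exact Poisson 95% intervals for counting error in 1 peak list. Dr and lbe lie above the limit of the highest 10% of regions (dashed line), and tin, at 1.51, lies below the median of all regions (dotted line).

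The tin locus shows how the neighbouring gene enters the 5 kb rule. Of its 5 regions, the highest 2, with folds of 5.22 (4.68 to 5.80) and 3.26 (2.83 to 3.75), had their summits inside mod(mdg4), which encodes a family of BTB-domain chromatin proteins that include an insulator component. They lay at 3R:21376375-21377075 and 3R:21375019-21375729, and the upper end of mod(mdg4) is 1575 bp from the lower end of tin. Both were strong, and they were the only strong regions within 5 kb of tin.

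The region at the lower end of tin itself, 3R:21378881-21379314, had a pileup of 92 reads over a local background of 60.6 reads. Inside tin, 3R:21380130-21380825 had a fold of 2.17 (1.79 to 2.61), with 111 reads over 50.6. The background at the end of tin was higher than the lowest background of the list, 44.4 reads, which bap, lbl, lbe and C15 had at all their regions. The 92 reads at the end of tin were close to the 94 at the end of lbl. They were fewer than the 109 to 319 at the highest end region of each of the other 5 genes. The second end region of C15 had 91. Set against the lowest background of the list, the same 92 reads would give a fold of 2.05. Of the 7 genes, tin alone had a highest fold within 5 kb that was not at one of its own ends. The highest fold was at an end, ties included, in the other 6, against 41.1% of the protein-coding genes with an end region and at least 2 regions within 5 kb. In lbl this was a tie with a region inside the gene. In bap, C15 and slou the interval at the end overlapped that of a region away from the ends. Only in lbe and Dr did it lie above the intervals of all other regions of the gene.

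Past tin, a narrow region of 235 bp at 3R:21383649-21383883 lay between tin and bap and had a fold of 1.72 (1.36 to 2.14). It was within 5 kb of both genes. The gene bap, the shortest of the 7 at 1570 bp, carried 1 region that covered 63.8% of its length, 3R:21389302-21390302, with 117 reads at the summit. This region ended 147 bp short of the upper end of bap, and its summit was 602 bp from it, so bap was the gene whose end no region contained. Beyond bap, 3R:21393081-21393346 had a fold of 1.74 (1.38 to 2.17).

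**Figure D2:**
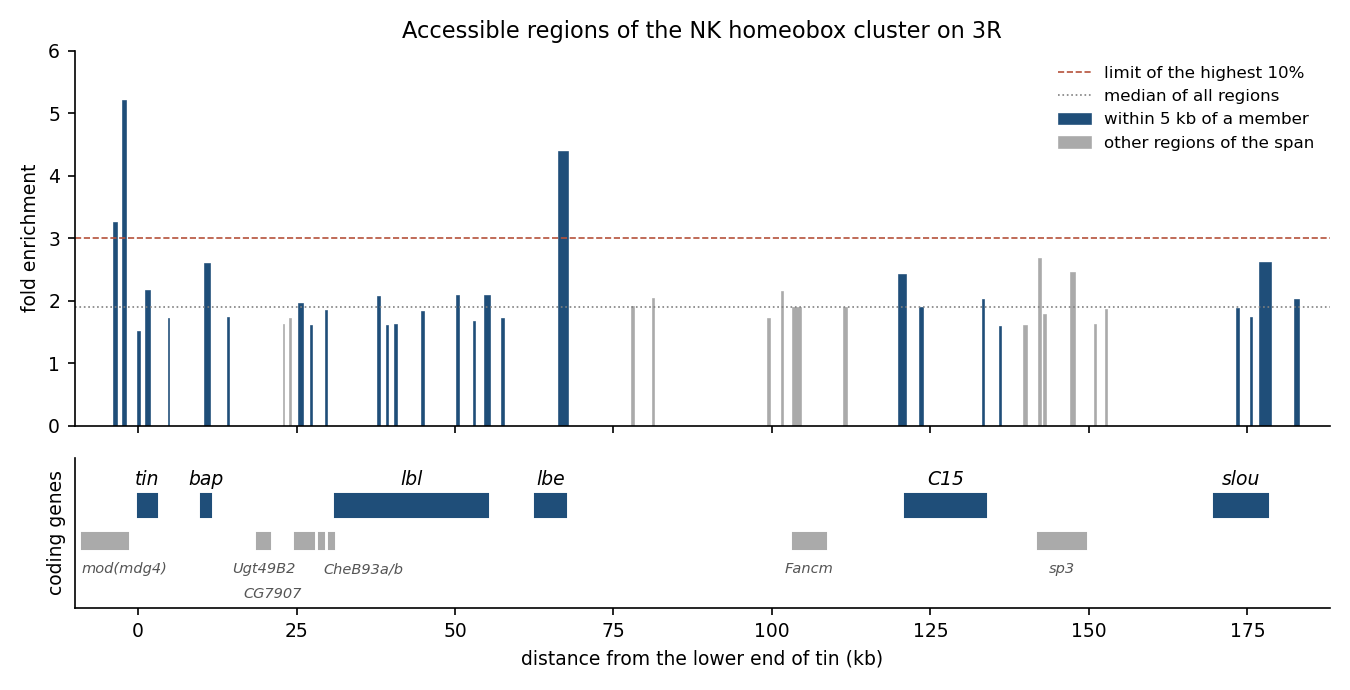
Fold enrichment (y axis, upper panel) of each region across the NK cluster against distance from the lower end of tin in kb (x axis), with bar width equal to region width, and coding genes drawn to scale below (members in blue, others in grey). The highest bars, 5.22 and 3.26 over mod(mdg4) and 4.39 at the upper end of lbe, are the strong regions, and the other bars stay at or under 2.69.

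The ladybird genes are neighbours with related homeodomains, 7443 bp apart, and their accessible regions were arranged differently. Within 5 kb lbl had 11 regions and lbe 2. Of all protein-coding genes, 96.0% had fewer regions within 5 kb than lbl, which is also the longest of the 7 genes at 24155 bp. Scaled to length, lbl had 3.22 regions per 10 kb, and 49.0% of protein-coding genes had fewer.

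Inside lbl lay 6 summits with folds from 1.61 to 2.09 and pileups from 72 to 94 reads. In order along the arm their folds were 2.07, 1.61, 1.63, 1.83, 2.09 and 1.68. None stood apart, since all their intervals overlapped. The region that contains the upper end of lbl, 3R:21433475-21434464, had the same fold as the highest of them, 2.09, but was wider, at 990 bp. Past the lower end of lbl were 3 regions of 1.96, 1.61 and 1.85. The first 2 of these had their summits inside CG7907 and the third, 3R:21408541-21408804, lay between CheB93a and CheB93b, genes of a chemosensory protein family.

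By contrast, lbe had a single region in its 4961 bp. It covered 1474 bp at the upper end, with its summit 8 bp from that end and a pileup of 198 reads over 44.4. Its fold of 4.39 was reached or passed by 3.67% of all regions. The only other region within 5 kb of lbe was 3R:21436279-21436644, which overlaps lncRNA:CR44089 between lbl and lbe and had a fold of 1.72 (1.36 to 2.14).

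C15 was the one gene of the 7 with separate regions at its lower and its upper end. The lower end lay inside 3R:21498890-21500104, 1215 bp wide, with 109 reads and a fold of 2.43, which also overlaps lncRNA:CR44032. Near the upper end, 3R:21512146-21512404 had 91 reads and a fold of 2.03 (1.64 to 2.49), so the intervals at the 2 ends overlapped. Between them, the 12829 bp of C15 held 1 further region, 3R:21502195-21502766, with a fold of 1.90. A region past the upper end, 3R:21514767-21515160, had the lowest pileup of the 31, 71 reads, and a fold of 1.59 (1.24 to 2.00).

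The upper end of slou lay inside the widest of the 31 regions, 3R:21555781-21557644, of 1864 bp, with 124 reads at its summit and a fold of 2.62. Within slou, 3R:21552263-21552708 and 3R:21554320-21554682 had folds of 1.88 and 1.73. Outside it, 3R:21561412-21562135 had 2.03. No region lay within 500 bp of the lower end of slou, which fell in a stretch of 20362 bp without any region. Only 3.08% of the gaps between neighbouring regions on 3R were longer, and the median gap was 2090 bp.

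As a stretch of chromosome, the cluster was close to the arm as a whole in its number of regions. From the lower end of tin to the upper end of slou, 178206 bp, there were 38 regions, or 2.13 per 10 kb, against 2.00 per 10 kb on 3R. They covered 12.3% of the span, against 12.9% of 3R. Of 179 windows of the same length laid end to end along 3R, 98 held fewer regions (median 35, lowest 1, highest 68). The arm values cover its whole length, stretches with very few regions included, which lowers them.

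Only 1 of the 38 regions of the span was strong, that at lbe, whereas 9.99% of all regions were. The 14 regions of the span that lay over 5 kb from every member gene had folds from 1.61 to 2.69, with a median of 1.89. The highest of them was inside sp3, at 3R:21520902-21521359. A region at an end of Fancm, a gene for a DNA repair helicase, had 1.90, and Ugt49B2, a glycosyltransferase gene between bap and lbl, had none at its ends. A second long stretch without a region, 17781 bp, lay between lbe and Fancm.

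Dr lies 7999203 bp past slou and is isolated, with the nearest coding genes, ND-20L and CG7567, 39859 and 21993 bp away. Its 4 regions fell into 1 strong region and 3 weak ones. The strong one contains the lower end of Dr, is 1052 bp wide, and had 319 reads at its summit, 129 bp from that end, over a background of 47.6. Only 257 regions of the list, 0.967%, had a fold as high or higher.

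The other 3 regions of Dr were inside the gene. In order along the arm, 3R:29557385-29557786 had a fold of 1.83 (1.47 to 2.24) from 90 reads, 3R:29561113-29561509 had 1.68 (1.34 to 2.09) from 80, and 3R:29564037-29564563 had 1.63 (1.28 to 2.05) from 73. Their intervals overlapped one another and lay far below that of the region at the lower end. Outside Dr the next regions were 18071 bp below it and 25315 bp above it, so none lay in its 5 kb flanks.

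**Figure D3:**
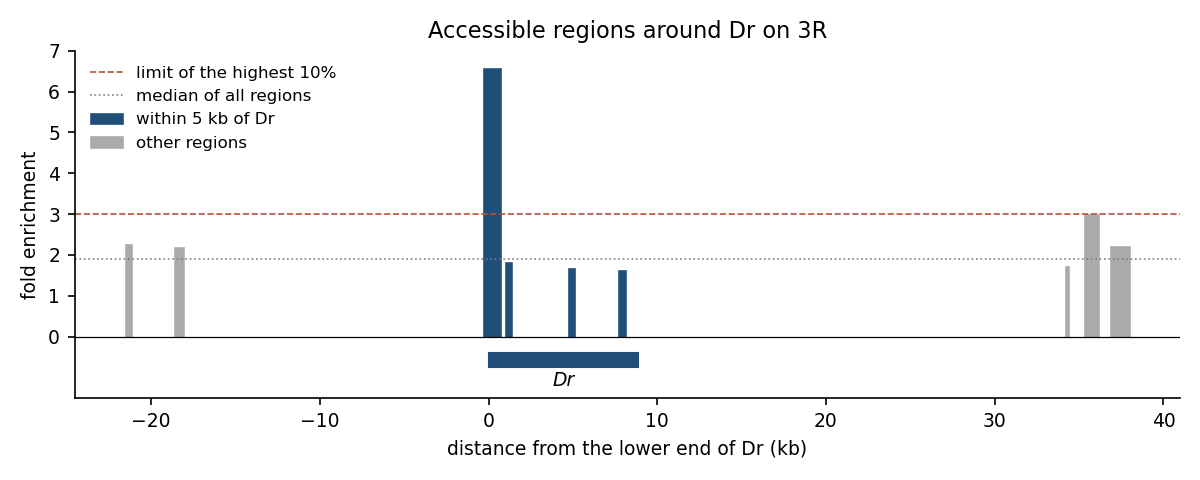
Fold enrichment (y axis) of each region around Dr against distance from the lower end of Dr in kb (x axis), with bar width equal to region width and the gene drawn below the zero line. The region at the lower end reaches 6.58, and the 3 regions inside the gene lie between 1.63 and 1.83. The nearest other regions (grey) lie 18071 bp below the gene and 25315 bp above it, with none between them and Dr.

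Across all 31 regions, those at gene ends were mostly wider and higher than those elsewhere. The 8 regions within 500 bp of an end of a member had a median fold of 2.51 and a median width of 1027 bp, against 1.83 and 397 bp in the 23 others. Some of the others lay at ends of neighbouring genes. Split instead by the ends of any coding gene, 12 of the 31 had medians of 2.26 and 905 bp and the other 19 had 1.74 and 397 bp. The same split of the whole list gave 1.98 and 608 bp for 8921 regions at an end and 1.87 and 451 bp elsewhere. Any base within 500 bp of an end was enough for a region to count, which a wider region meets more easily. The contrasts in width are thus partly set by the rule, and all these contrasts are descriptions of 1 list.

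The 13 regions inside a member gene and away from its ends had folds from 1.61 to 2.17, and the 6 between genes from 1.59 to 2.03. The 4 inside another coding gene ran from 1.61 to 5.22, with the 2 in mod(mdg4) at the top. Apart from the regions in mod(mdg4), then, no region away from the ends of the 7 genes was strong. Counted by gene, 3 of the 7 had a strong region within 5 kb (28.1% of protein-coding genes), or 2 without mod(mdg4), and 6 had one of the 20% of regions with the highest fold (49.2% of protein-coding genes). In all, 4 of the 31 regions were strong, or 12.9% against 9.99% of the list, and 14 of 31 were above the list's median fold. The recovered background was at the shared lowest value of the list in 21 of the 31, or 67.7% against 39.8%.

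**Figure D4:**
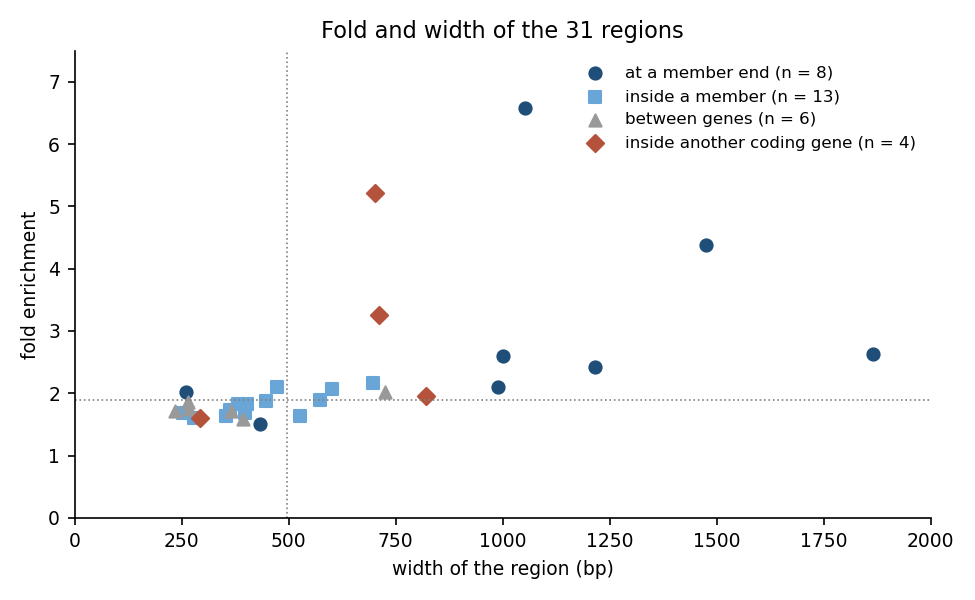
Fold enrichment (y axis) against width in bp (x axis) of the 31 regions, marked by where they lie, with dotted lines at the medians of the whole list. The regions over 1000 bp wide, 5 in number, were all at ends of member genes, and the regions inside members but away from their ends stay at or under a fold of 2.17.

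The 7 genes had a lower median density of regions than all protein-coding genes. Their median was 2.16 regions per 10 kb of gene and flanks, against 3.26 over all protein-coding genes. A median of 12.5% of that span was covered, against 21.4% over all protein-coding genes. The values for 3R, 2.00 per 10 kb and 12.9%, are totals over its whole length, not medians of gene spans, so they are not a like comparison. The values ran from 1.34 per 10 kb at lbe to 3.85 at tin, and the middle 50% of protein-coding genes from 1.87 to 4.29. The 7 are longer than most genes, with a median of 8522 bp against 2161 bp, and 6 of them are isolated. The part that length and isolation play in the density was not tested.

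Related genes elsewhere in the genome gave a mixed picture at their ends. Of 16 other homeobox genes of the NK and neighbouring classes, 11 had a region at an end (68.8%, against 68.6% of protein-coding genes) and 5 a strong one (31.3%, against 11.3%). The highest were E5 with 4.30 (3.72 to 4.95), Dll, which sets the distal part of the limbs, with 4.19 (3.62 to 4.83), HGTX with 3.64 and ems, a head gap gene, with 3.42. Hmx, another NK-related homeobox gene on 3R, had 1.59 (1.24 to 2.00), close to tin, and a higher region, of 3.48, within 5 kb. NK7.1, also on 3R, had a strong region at an end, with 3.14 (2.71 to 3.63). No region lay at an end of vnd, a patterning gene of the ventral nervous system, of B-H1 or B-H2, which act in the eye and the distal leg, or of lms, which acts in muscle.

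Among 20 regulators that act with the NK genes in mesoderm, heart and muscle, 16 had a region at an end (68.6% of protein-coding genes) and 10 a strong one (11.3%). The highest was zfh1, a zinc finger homeobox gene, with 10.9 (10.1 to 11.7), followed by tup, an Islet-class homeobox gene, with 7.63, the FGF receptor gene htl with 7.09 and ap, which also selects the dorsal wing compartment, with 5.03. Hand, sna, Kr and nau had no region at an end. The median fold at an end, among the genes with one, was 3.21 in this list and 2.84 in the homeobox list, against 2.60 in the 7 genes. Many of these regulators also act in other tissues, discs included, so the list is not one of muscle genes alone.

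**Figure D5:**
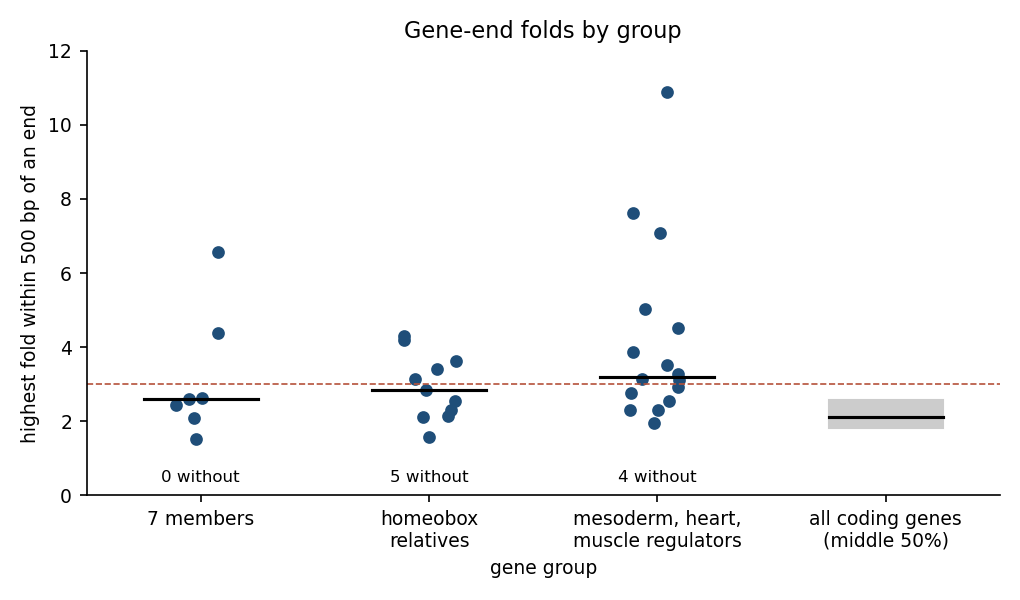
Highest fold within 500 bp of an end (y axis), 1 point for each gene with such a region, in 3 gene groups and as the middle 50% of all protein-coding genes (x axis), with black lines at medians, the dashed line at the limit of the highest 10% of regions, and the number of genes without an end region written below. The 7 genes run from 1.51 to 6.58 and none lacks an end region, while 5 homeobox relatives and 4 mesoderm regulators lack one.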

How the data were processed

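The 2 ATAC-seq libraries of D17 cells were prepared with a commercial kit, per the labels. The submitters' processing notes list MACS2 (2.2.6), Bowtie2 (2.3.5.1), bedtools (2.29.2), SAMtools (1.13) and Trim Galore (0.6.4), with dm6 and BDGP6 as builds, but not what each did. Pooling of the libraries before calling and any shift of reads for the transposase are not given in the sources. The deposited list has 10 columns and no header, and it was read as a D17 list since the table names D17 and no other cells are among the samples, although its region names carry HD, which is not explained. Its deposited fold enrichment is a ratio of summit pileup to local background, the deposited values for significance are a −log10 p-value and its −log10 q-value, and its deposited score was used only to rank regions. These meanings come from the layout and the values.

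A whole-number pileup and its background were recovered from fold and p-value, with a relative error of at most 2.11e-05. Recovery was tested on simulated pileups, and overlap counting was checked against a direct search of the deposited regions at a sample of coding genes. A region was assigned on an overlap of at least 1 bp. Gene positions came from the RefSeq table of Release 6, which gives no strand, so starts could not be told from stops. Sequence was not used here, so planned motif searches were not run, nor was the planned count at gene starts alone. The fixed rule for named genes took the 7 genes, the coding genes in the cluster span or in a flank, and up to 4 genes of each list with the highest fold at an end and up to 4 without a region there. Hmx and NK7.1 were named after their values were seen. Genes, lists and rules were chosen with earlier results of these data known. There was no test, since 1 list of 1 group has no replicate values. Python 3.11.15, numpy 2.4.6, pandas 2.3.3, SciPy 1.17.1 and matplotlib 3.10.9 were used.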

Additional observations from a re-analysis of the deposited data

How the results depend on the processing

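The counts and folds describe 1 list, and the depth of each library is unknown, so only counting error at the summit could be given. With 50% of the regions, those with the higher score, 13 of the 31 regions were left, with a median fold of 2.43 against 1.88, by construction. When strong meant the 20% of regions with the highest fold, 6 of the 7 genes had one within 5 kb (49.2% of protein-coding genes), against 3 at first (28.1%). The highest fold of tin fell to 2.17 from 5.22 with the gene body alone and, in an alternative added after seeing the data, without regions whose summit is in another coding gene. Then 2 of the 7 genes, lbe and Dr, had a strong region. Of the spans of the 7 genes together, regions covered 14.0% with flanks of 5 kb, 16.0% with flanks of 2 kb and 18.0% in the gene bodies. Other windows and summit rules at gene ends gave 6 or 7 of the 7 genes. No paired analysis was possible because the series has 1 group and its list names no replicate, and for the same reason no replicate could be left out.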
